A study of Arabidopsis thaliana with 48 samples.

Results

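The window from day 2 to day 4 of synchronized flower formation was examined in Arabidopsis thaliana by setting 4 libraries of day 4 against 4 libraries of day 2, 8 of the 24 samples of the time course. The members are the samples whose labels give 2 or 4 days after induction, and each sample is the sum of its 2 sequencing runs. Every plant had the Col-0 background, carried mutations in AP1 and CAL, and held a transgene in which the AP1 promoter drives AP1 fused to the hormone-binding part of the glucocorticoid receptor (pAP1:AP1-GR ap1 cal). After 4 days of stratification, plants grew at 21 °C with 16 h of light. Inflorescences were drenched with 2 µM dexamethasone in 0.01% ethanol and 0.01% Silwet, first at 8 h after lights on and then daily at 4 h, at both time points alike, so the days differ in time since the first drenching and in the number of drenchings. Plants of days 2 and 4 that received no dexamethasone were not analysed here. The 4 replicates of a day are called biological replicates by the labels, which do not say how many plants each one pooled. The labels do not state the age of the plants or the hour of sampling.

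In the ap1 cal double mutant, meristems that should become flowers keep producing further inflorescence meristems, so that the shoot tip looks like a cauliflower head. Dexamethasone lets the fusion protein enter the nucleus, and many floral meristems then start at about the same time. A floral meristem first gains its identity, then marks the founder cells of its organs, separates them by boundaries, and lets them grow out as primordia with an inner and an outer face, while the stem cell pool that WUS and CLV3 control is closed down. In growing primordia, CIN-type TCP factors, held in check by the microRNA miR319, promote the change from cell division to differentiation.

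Between day 2 and day 4, 10 of 20 tested genes of shoot meristem maintenance and 9 of 18 of organ founder cells and auxin fell. So did 6 of 13 of organ boundaries. Rises were called in 7 of 8 CIN-type TCP genes, 17 of 24 genes of epidermis, cutin and wax and 8 of 17 of the stomatal lineage. Over all tested genes 5.74% rose and 3.09% fell. WUS went from 4.0998 ± 0.675 to 1.39 ± 0.499 CPM and DRNL, a mark of organ founder cells, from 12.8 ± 2.23 to 3.49 ± 0.859 CPM (mean ± SD, n = 4 per day, as in all values below). TCP10, a CIN-type TCP, went from 18.7 ± 1.71 to 70.1 ± 2.58 CPM and SHN1, an activator of cuticle synthesis, from 0.857 ± 0.268 to 9.35 ± 2.63 CPM. CPM are counts scaled to 1 M of the effective library size, which corrects for the composition of each library, and they are not corrected for gene length. Of 22 tested mitosis genes 1 rose and 1 fell (4.55% each), near the shares over all genes, and of 16 tested DNA replication genes 0 were called.

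The 8 libraries held 26.56 to 27.67 M counts and detected 21841 to 22129 genes each. Of 19747 tested genes, 1133 were higher at day 4 (5.74%) and 610 lower (3.09%) at adjusted p under 0.05, which is 1743 genes in all (8.83%). Among these, 381 rose (1.93% of tested genes) and 108 fell (0.547%) by at least 2-fold. All 4 libraries of day 4 lay above all 4 of day 2 in 1600 tested genes (8.1%) and below them in 1262 (6.39%), whether called or not. The median log2 fold change over all tested genes was -0.006. On the first principal component of the 8 libraries, which held 41.3% of the variance, day 2 libraries lay between -37.4 and -18.77 and day 4 libraries between 17.45 and 36.84. Replicate 1 of both days stood apart on the second component (29.22 and 27.88, against -23.12 to 2.342 for the other 6 libraries). Day 2 replicate 4 held 12.9 CPM summed over the tapetum markers A9, ATA7, ATA1 and AMS, against 0.527 to 3.23 CPM in the other day 2 libraries and 0.0371 to 2.52 CPM at day 4. Without that library, 1011 genes were higher and 558 lower. LFY and STM, markers of floral and shoot meristems, were detected in all 8 libraries at 106 to 119.9 and 129 to 139 CPM on day 2 and 71.0 to 88.5 and 81.2 to 95.7 CPM on day 4. Counts of list members below stand beside the shares over all genes, 5.74% higher and 3.09% lower, and fewer cells of a type cannot be told apart from less RNA per cell in these whole inflorescences.

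**Figure D1:**
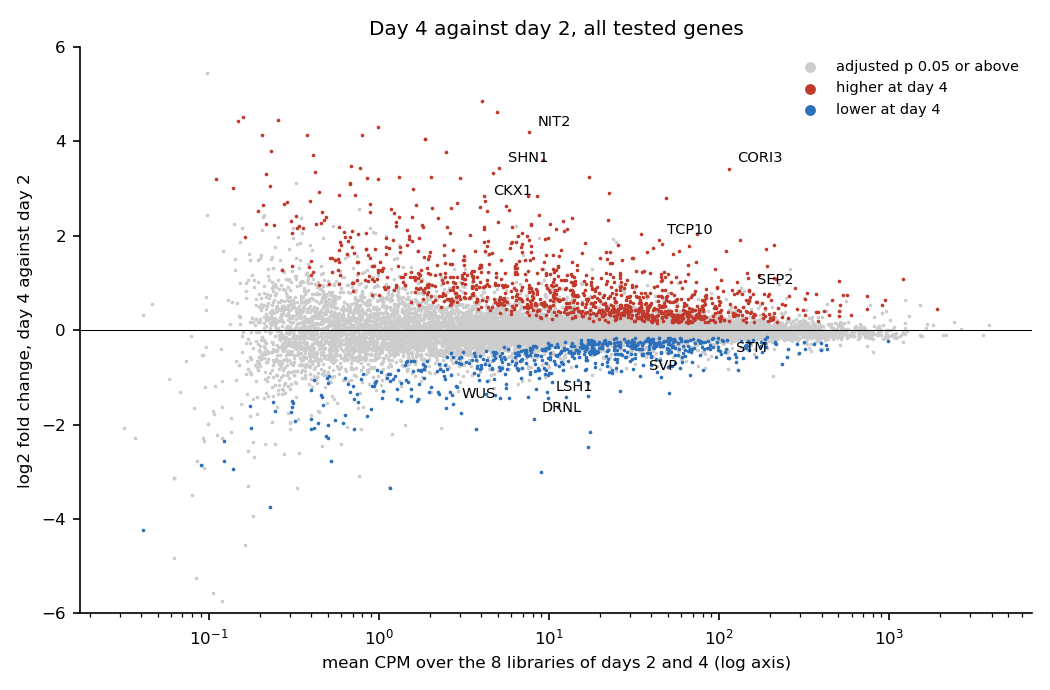
Each point is 1 of the tested genes, with its mean CPM over the 8 libraries on a log axis and its log2 fold change of day 4 against day 2; red and blue points passed adjusted p under 0.05, and 9 genes beyond 6 on the log2 scale are not drawn. The 1133 genes higher at day 4 reach further from 0 than the 610 lower ones, with NIT2 and CORI3 among the highest and DRNL among the lowest of the labelled genes.

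Both steps of the window gave calls. Replicate 4 of day 3, which enters both steps, stood apart from the other day 3 libraries. On the first principal component of the libraries of all days it lay at 27.97, against 6.655 to 7.756 for the others of day 3. Replicates 1 and 3 of day 4 lay lower there, at 22.76 and 20.89. On the third component it lay at -43.92, against 3.235 to 16.15. Its effect on the tests of the steps was not tested by leaving it out alone. Day 3 against day 2 gave 137 genes higher (0.694%) and 35 lower (0.177%), in all 172 (0.871%), and day 4 against day 3 gave 190 higher (0.962%) and 96 lower (0.486%), in all 286 (1.45%). In the test of the second step against the first, edgeR called 0 genes in either direction, with 1061 genes (5.37%) at an unadjusted p under 0.05 and a lowest adjusted p of 0.289. DESeq2 called 3 genes there, 2 higher and 1 lower. They were MEE14, with means of 158, 127 and 247 CPM at days 2, 3 and 4, AT4G15160, with 3.84, 8.45 and 5.82 CPM, and AT1G22800, with 0.26, 0 and 0.325 CPM, named after their values were seen.

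**Figure D2:**
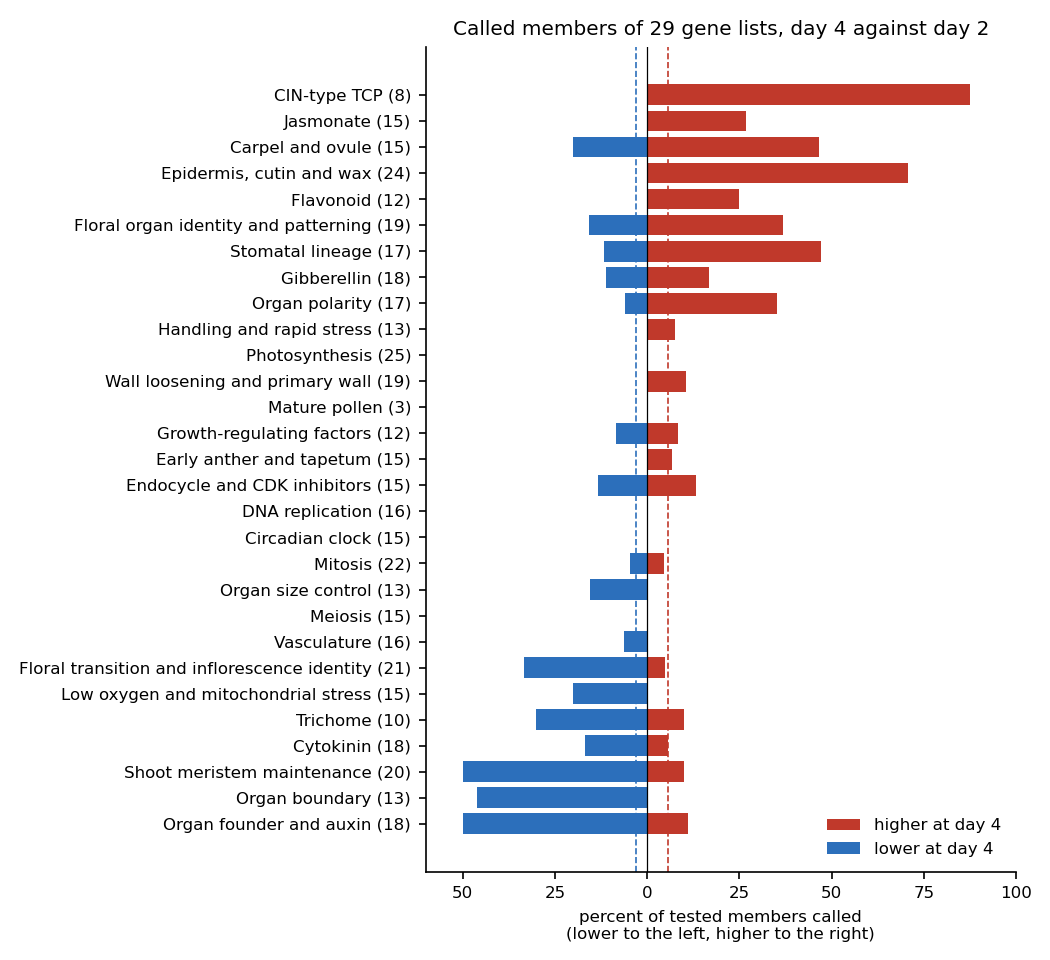
Bars give the percent of the tested members of each gene list (number in brackets) that were called higher (red, right) or lower (blue, left) at day 4, ordered by median log2 fold change, and dashed lines give the shares over all tested genes, 5.74% and 3.09%. The founder, boundary and meristem lists lie at the bottom with 50%, 46.2% and 50% of members lower, and the CIN-type TCP list at the top with 87.5% higher.

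The stem cell regulators fell together. Of 20 tested genes of shoot meristem maintenance, 10 fell (50%) and 2 rose (10%), with a median log2 fold change of -0.29. WUS (AT2G17950, chr2:7808871-7810811), the homeodomain factor of the organizing centre that keeps stem cells undifferentiated, stood at 4.45, 4.78, 3.95 and 3.22 CPM in replicates 1 to 4 of day 2 and at 0.779, 1.54, 1.97 and 1.26 CPM in those of day 4. All day 4 libraries lay under all day 2 libraries, and the log2 fold change was -1.56 ± 0.23 (SE, as in all fold changes below; adjusted p = 5.6e-05). CLV3 (AT2G27250), the peptide signal of the stem cells, was low at 1.34, 1.30, 1.11 and 0.744 CPM and went to 0.371, 0.337, 0.371 and 0.481 CPM, again with no overlap between days (log2 fold change -1.51 ± 0.25, adjusted p = 0.00023). CLV1, a receptor of that peptide, fell from 74.8 ± 5.71 to 50.9 ± 5.72 CPM (adjusted p = 0.00281). Of its relatives BAM1 fell from 363 ± 24.1 to 277 ± 24.4 CPM (adjusted p = 0.000451), while BAM2 rose from 67.7 ± 2.66 to 93.0 ± 8.39 CPM (adjusted p = 0.00115).

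The homeobox genes of the indeterminate meristem fell by smaller factors. STM (AT1G62360), which prevents differentiation throughout the meristem, had 139, 132, 139 and 129 CPM at day 2 and 81.2, 94.3, 86.9 and 95.7 CPM at day 4. No day 4 library reached the lowest day 2 library, and the log2 fold change was -0.59 ± 0.08 (adjusted p = 5.12e-05). BLH8 and BLH9, BELL-type partners of STM that are also known as POUND-FOOLISH and PENNYWISE, went from 39.9 ± 1.89 to 22.5 ± 1.57 and from 117 ± 2.59 to 85.6 ± 3.27 CPM (log2 fold changes -0.83 ± 0.08 and -0.45 ± 0.06, adjusted p = 5.66e-07 and 2e-05). KNAT6, a relative of STM, fell from 71.1 ± 2.48 to 51.2 ± 2.66 CPM (adjusted p = 4.72e-05). The remaining 3 calls of the list were near the threshold: KNAT2 (log2 fold change -0.34 ± 0.11, adjusted p = 0.047) and BAM3 (-0.23 ± 0.07, adjusted p = 0.0467) each lost the call when any one of 7 libraries was left out, the exceptions being day 2 replicate 1 for KNAT2 and day 2 replicate 3 for BAM3, with adjusted p up to 0.136 and 0.163. ATH1, a BELL gene that rose (0.26 ± 0.08, adjusted p = 0.0424), lost it without any one of 6 libraries (adjusted p up to 0.144), and kept it only without day 2 replicate 2 or day 4 replicate 4.

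Genes that mark organ founder cells or carry auxin to them fell as well. Of 18 tested genes of this list, 9 fell (50%) and 2 rose (11.1%), with a median log2 fold change of -0.43. DRNL (AT1G24590, chr1:8714365-8715378), an AP2-type factor expressed in founder cells ahead of outgrowth, had 15.1, 14.1, 10.2 and 11.8 CPM at day 2 and 3.15, 3.75, 4.53 and 2.52 CPM at day 4. The lowest day 2 library was above the highest day 4 library, and the log2 fold change of -1.87 ± 0.22 (adjusted p = 4.85e-06) was the largest fall among the 207 falling genes that met the rule for naming. AHP6 (AT1G80100), an inhibitor of cytokinin signalling made where organs initiate, went from 16.3, 19.7, 17.4 and 14.7 CPM to 5.42, 6.41, 6.05 and 4.26 CPM. Its days were likewise apart (log2 fold change -1.62 ± 0.17, adjusted p = 1.44e-06).

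AUX1 and AIL6 fell by smaller factors. AUX1, an auxin influx carrier, fell from 125 ± 5.37 to 94.4 ± 4.17 CPM (log2 fold change -0.40 ± 0.05, adjusted p = 6.85e-06). AIL6, an AINTEGUMENTA-LIKE factor that supports organ initiation, fell from 67.8 ± 7.12 to 41.7 ± 5.31 CPM (log2 fold change -0.70 ± 0.10, adjusted p = 3.65e-05). Others that fell, named after their values were seen, were AIL7 (-0.85), DRN (-1.51), PUCHI (-1.35) and the auxin synthesis gene YUC4 (-0.45 on the log2 scale). PUCHI was at or under 1.53 CPM in all 8 libraries and was no longer called once day 2 replicate 1 or day 4 replicate 3 was left out (adjusted p up to 0.0606). YUC4 lost it without any of replicates 1 to 3 of day 2 or replicate 1 or 4 of day 4 (adjusted p up to 0.143). Against the list, AIL5 rose from 15.7 ± 1.39 to 24.3 ± 2.35 CPM (adjusted p = 0.000262) and TAA1, an aminotransferase of auxin synthesis, from 21.6 ± 2.49 to 29.3 ± 1.46 CPM (adjusted p = 0.00334).

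At organ boundaries, 6 of 13 tested genes fell (46.2%) and 0 rose, with a median log2 fold change of -0.36. LSH1 (AT5G28490), a member of the ALOG family of boundary and light-response factors, stood at 16.1, 13.1, 14.5 and 13.6 CPM at day 2 and 3.97, 6.15, 5.31 and 5.81 CPM at day 4. Its days did not overlap (log2 fold change -1.43 ± 0.12, adjusted p = 7.46e-08). CUC2 (AT5G53950), a NAC factor that keeps neighbouring organs apart, had 33.8, 32.4, 35.8 and 33.3 CPM and then 23.2, 23.4, 23.9 and 20.8 CPM (log2 fold change -0.57 ± 0.07, adjusted p = 1.13e-05). Its partner CUC1 fell from 34.8 ± 1.63 to 27.0 ± 1.78 CPM (adjusted p = 0.0074). CUC3, the third member, had 26.7, 26.5, 32.3 and 31.2 CPM at day 2 and 16.962, 24.2, 28.2 and 21.9 CPM at day 4, ranges that overlapped, and missed the threshold (log2 fold change -0.35 ± 0.12, adjusted p = 0.0741). JLO, a LOB-domain factor of boundaries, and LOF1, a MYB factor of axils, fell, with log2 fold changes of -0.71 and -0.36 (adjusted p = 0.00178 and 0.00365). LSH3 (-0.39 ± 0.11, adjusted p = 0.0312) lost its call without replicate 1 or 4 of day 2 or replicate 1 or 3 of day 4 (adjusted p up to 0.0994), and 3 in place of 6 genes of the list fell without replicate 4 of all days or in batch 1 alone.

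**Figure D3:**
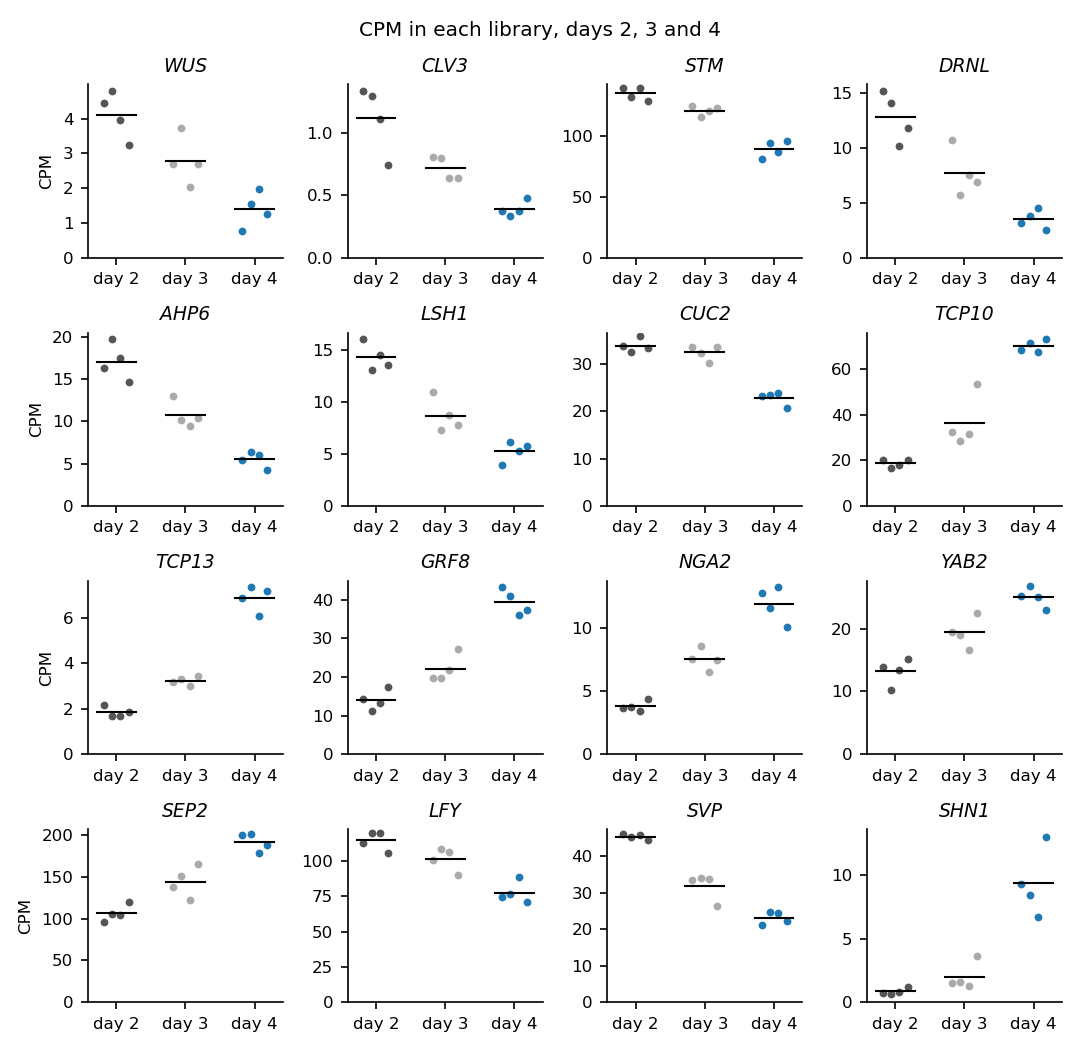
Each panel plots the CPM of 1 gene in the 4 libraries of day 2, day 3 and day 4 (points, replicates 1 to 4 from left to right within a day), with the mean as a line and a linear axis from 0. In all 16 panels the day 2 and day 4 points do not overlap, and the mean of day 3 lies between the means of days 2 and 4.

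Genes of the CIN-type TCP family rose together. These factors repress boundary and proliferation programmes in lateral organs, and a subset of them is cleaved under the guidance of miR319. In Arabidopsis the known targets are TCP2, TCP3, TCP4, TCP10 and TCP24, while TCP5, TCP13 and TCP17 are not targets. The mature microRNA (RefSeq annotation of TAIR10.1, chr4:12353109-12353129, plus strand) is shown with its seed, bases 2 to 8, in capitals, and below it the best-pairing stretch in the coding sequence of each family member, with the bases that face the seed in capitals.
miR319a: uUGGACUGaagggagcucccu
TCP10: aaggggtacccttCAGTCCAg
TCP4: gaggggtccccttCAGTCCAg
TCP3: gaggggtccccttCAGTCCAt
TCP2: cagggggacccttCAGTCCAa
TCP24: tagggggacccttCAGTCCAa
TCP13: aatcggatgtcgtCGGTCCAa
TCP17: tagcagctcttatCACTACAa
TCP5: gacaagctacctcCTCTACAa

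These stretches lie at chr2:13221210-13221230 (TCP10, minus strand), chr3:5063300-5063320 (TCP4, plus), chr1:19850522-19850542 (TCP3, minus), chr4:10163402-10163422 (TCP2, minus), chr1:10628989-10629009 (TCP24, minus), chr3:392476-392496 (TCP13, plus), chr5:2585388-2585408 (TCP17, plus) and chr5:24536278-24536298 (TCP5, minus), all within coding exons of TAIR10.1. With 1 point for an unpaired base and 0.5 for a G-U pair, the 5 known targets scored 3.5 to 4.5 and carried the same 7 bases facing the seed, and the other 3 genes scored 7 to 8.5. A score of 4.5 or less occurred in 42 of 19218 tested coding genes (0.219%). This limit was the highest score of the 5 known TCP targets, so their place among the 42 was fixed in advance. Of these 42, the 5 TCP genes were higher at day 4, and of the other 37 none was higher and 2 were lower. MYB33 and MYB65 scored 3, under every TCP gene, and gave no call (log2 fold changes -0.01 and -0.06, adjusted p = 0.961 and 0.855). The match is a description of the letters, and mature microRNAs were not measured.

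Of the 8 family members 7 rose (87.5%) and 0 fell, with a median log2 fold change of 1.06. TCP10 (AT2G31070) had 20.014, 16.5, 18.023 and 20.057 CPM at day 2, 32.5, 28.6, 31.4 and 53.4 CPM at day 3 and 68.2, 71.3, 67.7 and 73.2 CPM at day 4. Every day 4 library was above every day 2 library, and the log2 fold change was 1.91 ± 0.16 (adjusted p = 8.72e-08). TCP4 (AT3G15030), the best-studied miR319 target, had 12.7, 7.41, 9.84 and 10.8 CPM and then 21.2, 22.0, 23.3 and 25.1 CPM (log2 fold change 1.17 ± 0.18, adjusted p = 8.8e-05). Among the other targets, TCP3 rose by 0.96 ± 0.16 and TCP2 by 0.80 ± 0.10 on the log2 scale (adjusted p = 0.000381 and 1.15e-05). TCP24 had the smallest rise of the 7 (0.29 ± 0.09, adjusted p = 0.0398) and lost the call when any one of 6 libraries was left out (adjusted p up to 0.137), keeping it only without replicate 4 of either day.

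Of the 3 members without a miR319 site, 2 rose and 1 gave no call. TCP13 (AT3G02150) rose from 2.19, 1.69, 1.69 and 1.88 CPM to 6.90, 7.35, 6.09 and 7.18 CPM, with no overlap (log2 fold change 1.89 ± 0.16, adjusted p = 9.58e-08). TCP5 rose from 1.10 ± 0.225 to 2.76 ± 0.454 CPM (log2 fold change 1.33 ± 0.22, adjusted p = 0.000268). TCP17 stayed low, at 0.532 to 0.969 CPM on day 2 and 0.297 to 1.08 CPM on day 4, and gave no call (log2 fold change -0.28 ± 0.34, adjusted p = 0.739).

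By its mean, day 2 was the lowest of the 6 days for TCP2, TCP3, TCP4, TCP5 and TCP13, as the plot over 6 days shows. TCP4 had means of 22.6, 13.4, 10.2, 12.1, 22.9 and 31.8 CPM from day 0 to day 5. The change from day 2 to 4 was therefore also set against the change from day 0 to 2. The day 2 libraries enter both changes in this test, and a gene can pass it through the earlier change alone. The earlier change starts at day 0, so it holds any first response to the drenching as well as to AP1 activity. In this and the later tests between windows these cannot be told apart. The result is the second change minus the first, on the log2 scale. For TCP4 this difference was 2.32 ± 0.32 (adjusted p = 7.27e-05), for TCP10 2.35 ± 0.29 (adjusted p = 2.57e-05) and for TCP13 2.82 ± 0.30 (adjusted p = 2.96e-06). In all, 6 of 8 members passed this test with a positive difference and 0 with a negative one, against 4.39% and 3.67% of all tested genes. TCP24 (0.38 ± 0.15, adjusted p = 0.137) and TCP17 (1.20 ± 0.57, adjusted p = 0.232) did not pass.

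**Figure D4:**
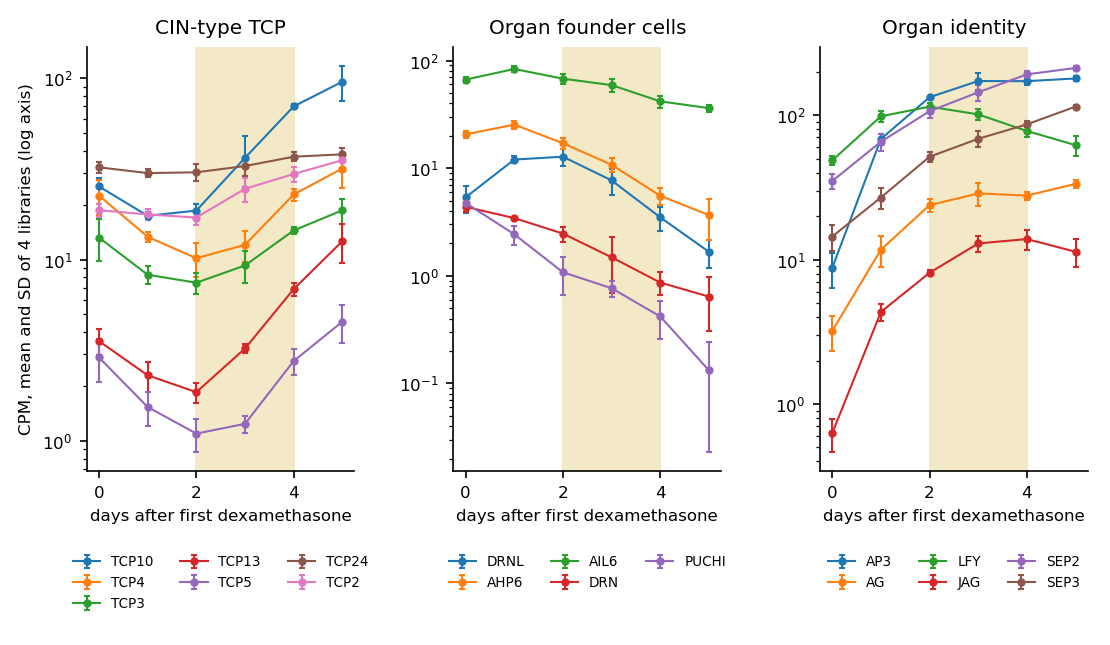
Lines join the mean CPM of 4 libraries (error bars, SD) on each of days 0 to 5, on log axes, for 7 CIN-type TCP genes, 5 founder-cell genes and 6 organ identity genes; the shaded band is day 2 to day 4. TCP10, TCP3, TCP4, TCP5, TCP13 and TCP2 lie lower on day 2 than on day 0 and turn upward within the band, the founder-cell genes decline through it, and AP3, AG and JAG make most of their rise before it.

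Of 12 tested growth-regulating factors and their cofactors, 1 rose (8.33%) and 1 fell (8.33%). GRF8 (AT4G24150), a growth-regulating factor, had 14.2, 11.3, 13.2 and 17.5 CPM at day 2 and 43.3, 41.1, 36.1 and 37.3 CPM at day 4. Its days were far apart (log2 fold change 1.49 ± 0.13, adjusted p = 7.46e-08). GIF1, the coactivator of these factors, fell from 491 ± 13.9 to 371 ± 11.8 CPM (adjusted p = 2.19e-05), and the median log2 fold change of the list was -0.004. The NGATHA genes, which direct style and leaf-margin growth, rose without exception among 4 tested. NGA2 (AT3G61970) went from 3.68, 3.69, 3.41 and 4.36 CPM to 12.7, 11.5, 13.2 and 10.027 CPM (log2 fold change 1.65 ± 0.15, adjusted p = 1.98e-07). NGA1, NGA3 and NGA4 rose by 1.22 ± 0.15, 1.68 ± 0.20 and 1.23 ± 0.28 on the log2 scale (adjusted p = 8.48e-06, 6.57e-06 and 0.0061).

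Regulators of the inner and outer organ faces rose in part. Of 17 tested polarity genes, 6 rose (35.3%) and 1 fell (5.88%), with a median log2 fold change of 0.08. YAB2 (AT1G08465), a YABBY factor of the outer, abaxial face, had 13.8, 10.3, 13.4 and 15.2 CPM at day 2 and 25.2, 26.8, 25.1 and 22.978 CPM at day 4, without overlap (log2 fold change 0.92 ± 0.12, adjusted p = 1.41e-05). Its relatives YAB3 and FIL rose from 62.2 ± 5.38 to 105 ± 8.12 and from 199 ± 29.4 to 289.6 ± 19.5 CPM (adjusted p = 3.65e-06 and 0.000217). KAN3, another abaxial factor, rose by 0.95 ± 0.16 (adjusted p = 0.000326). On the inner face AS2, a LOB-domain factor, rose from 2.04 ± 0.208 to 4.33 ± 0.484 CPM (log2 fold change 1.08 ± 0.16, adjusted p = 0.000103) and PHV, an HD-ZIP III factor, from 143 ± 12.3 to 176 ± 4.24 CPM (adjusted p = 0.0115). ETT, an auxin response factor of the abaxial face, fell from 300.2 ± 21.4 to 201 ± 4.103 CPM (log2 fold change -0.58 ± 0.07, adjusted p = 3.38e-06).

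Among 20 tested microRNA precursors, the transcript of MIR166a (AT2G46685, chr2:19176108-19176277) was the one call. The microRNA it encodes silences HD-ZIP III genes such as PHV. It stood at 0.268, 0.562, 0.287 and 0.390 CPM at day 2 and 0.0371, 0.150, 0.0743 and 0.185 CPM at day 4, low values throughout (log2 fold change -1.72 ± 0.47, adjusted p = 0.0216). The call was lost without day 2 replicate 2, day 4 replicate 1 or day 4 replicate 3 (adjusted p up to 0.092), and the gene was named after its value was seen.

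Organ identity genes moved in both directions. Of 19 tested, 7 rose (36.8%) and 3 fell (15.8%), with a median log2 fold change of 0.37. The SEPALLATA cofactors, which join the other identity factors in complexes, were among those that rose. SEP2 (AT3G02310) had 95.8, 105, 104 and 120.3 CPM and then 200.02, 201, 178 and 187 CPM (log2 fold change 0.85 ± 0.10, adjusted p = 2.96e-06). SEP3 rose from 51.5 ± 3.93 to 86.3 ± 4.08 CPM and SEP1 from 39.4 ± 2.47 to 56.1 ± 2.28 CPM (adjusted p = 0.000135 and 0.000791). JAG, a zinc-finger factor of petal and stamen outgrowth, rose from 8.10 ± 0.336 to 13.9 ± 2.19 CPM (log2 fold change 0.78 ± 0.14, adjusted p = 0.000896), and AP2, a sepal and petal factor, from 80.7 ± 3.78 to 112 ± 7.55 CPM (adjusted p = 0.000683).

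The petal and stamen factor AP3 had 138, 134, 131 and 129 CPM at day 2 and 168, 186, 168 and 165 CPM at day 4 (log2 fold change 0.37 ± 0.11, adjusted p = 0.0448). These values did not overlap, but the call was lost on leaving out any one of the 8 libraries (adjusted p up to 0.137). PTL, a factor of sepal margins (0.40 ± 0.11, adjusted p = 0.0226), lost its call without replicate 2 or 3 of day 2 or replicate 1 or 2 of day 4 (adjusted p up to 0.101). PI, the partner of AP3, and AG, the stamen and carpel factor, gave no call (log2 fold changes 0.02 ± 0.11 and 0.22 ± 0.15, adjusted p = 0.954 and 0.472). AP1 reads, which can come from the transgene as well as from the mutated gene, gave no call either (291 ± 18.6 and 322 ± 13.8 CPM, adjusted p = 0.299).

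LFY, PAN and ROXY1 fell. LFY (AT5G61850), the master factor of floral identity, had 113, 119.9, 119.7 and 106 CPM at day 2 and 74.3, 76.7, 88.5 and 71.0 CPM at day 4, without overlap (log2 fold change -0.56 ± 0.09, adjusted p = 0.000315). PAN, a bZIP factor that sets organ number, and ROXY1, a glutaredoxin of petal initiation, fell, with log2 fold changes of -0.68 ± 0.09 and -0.76 ± 0.14 (adjusted p = 3.07e-05 and 0.00101). UFO, the F-box cofactor of LFY, had 29.3 to 40.2 CPM at day 2 and 21.8 to 32.6 CPM at day 4 and gave no call (adjusted p = 0.165).

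The flowering repressor SVP (AT2G22540) also fell. SVP went from 46.2, 45.2, 45.8 and 44.5 CPM to 21.3, 24.7, 24.5 and 22.3 CPM (log2 fold change -0.97 ± 0.08, adjusted p = 5.59e-08). AGL24, its close relative that promotes inflorescence fate, fell from 51.0 ± 1.40 to 33.6 ± 2.07 CPM (adjusted p = 1.45e-06), and FD, the bZIP partner of florigen, from 63.5 ± 2.90 to 37.4 ± 5.13 CPM (log2 fold change -0.77 ± 0.09, adjusted p = 5.42e-06). Transcripts of CAL, which is mutated in these plants, fell from 13.2 ± 0.705 to 9.06 ± 0.637 CPM (adjusted p = 0.00233). In the whole list of floral transition and inflorescence identity, 7 of 21 tested genes fell (33.3%) and 1 rose (4.76%). The riser was SPL5, a promoter of flowering, from 51.7 ± 6.16 to 92.0 ± 9.85 CPM (adjusted p = 0.00137). The remaining 3 that fell, SOC1, FDP and AGL71, had adjusted p of 0.0363, 0.0498 and 0.0313, and 4 in place of 7 genes of the list fell without replicate 2 or 4 of day 2 or replicate 2 or 3 of day 4. SOC1 kept its call only without replicate 1 of day 2 or replicate 4 of day 4, FDP only without replicate 1 of day 2, and AGL71 without replicate 1 or 3 of day 2 or replicate 1 or 4 of day 4 (adjusted p up to 0.142).

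The organ identity genes were also set against the preceding window. From day 0 to day 2 AP3 had gone from 8.74 ± 2.41 to 133 ± 3.58 CPM, and the test of the difference between the windows gave -3.56 ± 0.20 (adjusted p = 1.9e-10). JAG and LFY gave -2.90 ± 0.28 and -1.80 ± 0.16 (adjusted p = 9.74e-07 and 2.62e-07). AG, with 3.20 ± 0.872 CPM at day 0, gave -2.67 ± 0.27 (adjusted p = 1.54e-06). In all, 15 of 19 tested identity genes had a lower change from day 2 to 4 than from day 0 to 2, and 1 a higher one. Among all tested genes, 3.67% had a lower and 4.39% a higher change. SEP2, at 34.9 ± 4.15 CPM on day 0, was among the 15 (-0.76 ± 0.16, adjusted p = 0.00569) although its mean was higher at the end than at the start of both windows.

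Carpel and ovule genes moved in both directions. Of 15 tested, 7 rose (46.7%), 4 of them the NGATHA genes described above, and 3 fell (20%), with a median log2 fold change of 0.44. CRC, a YABBY factor of carpels and nectaries, had 5.71, 4.53, 6.71 and 13.4 CPM at day 2 and 19.9, 28.6, 20.203 and 25.3 CPM at day 4 (log2 fold change 1.63 ± 0.38, adjusted p = 0.00695). Day 2 replicate 4, the library with more tapetum transcripts, was the highest of its day, and no day 2 library reached day 4. INO, a YABBY factor of the outer integument, was under 1 CPM and fell (0.704 ± 0.0522 to 0.177 ± 0.0823 CPM, adjusted p = 0.000545). SPT and STY1, factors of carpel margin and style, fell, with log2 fold changes of -0.53 and -0.51 (adjusted p = 0.000396 and 0.00301). Among 15 tested genes of early anther and tapetum, TGA9 was the one that rose, from 2.24 ± 0.912 to 5.68 ± 0.568 CPM (adjusted p = 0.0237), and it lost the call without any of replicates 1 to 3 of day 2 or replicate 2 of day 4 (adjusted p up to 0.0838).

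By number, the list of epidermis, cutin and wax held more rising genes than any of the other 28 lists. By share it came after the CIN-type TCP list (87.5%). Of its 24 tested genes, 17 rose (70.8%) and 0 fell, with a median log2 fold change of 0.43. SHN1 (AT1G15360), an ERF factor that switches on cutin and wax synthesis, had 0.728, 0.632, 0.826 and 1.24 CPM at day 2 and 9.28, 8.44, 6.72 and 12.951 CPM at day 4. Its days did not overlap (log2 fold change 3.44 ± 0.36, adjusted p = 1.06e-06). MYB16 (AT5G15310), a MYB factor of cuticle and of conical petal cells, rose from 14.5, 11.6, 15.5 and 15.9 CPM to 28.3, 30.1, 29.043 and 30.9 CPM (log2 fold change 1.04 ± 0.16, adjusted p = 0.000122). HTH, an oxidoreductase needed to keep organs from fusing, rose from 195 ± 21.9 to 362 ± 40.0 CPM (log2 fold change 0.89 ± 0.15, adjusted p = 0.000231). PDF1, a marker of the outermost cell layer, rose from 1623 ± 149 to 2210.3 ± 51.0 CPM (log2 fold change 0.45 ± 0.08, adjusted p = 0.00044). No single library of days 2 and 4, when left out, brought the count of 17 down by more than 1.5 times, while dropping replicate 2 of all 6 days left 7. With a fold threshold of 1.5, 2 genes of the list rose.

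Stomatal lineage genes rose in part. Of 17 tested, 8 rose (47.1%) and 2 fell (11.8%), with a median log2 fold change of 0.30. TMM (AT1G80080), a receptor-like protein that spaces stomata, had 28.1, 18.4, 25.1 and 23.4 CPM at day 2 and 60.1, 54.8, 51.0 and 55.0 CPM at day 4, without overlap (log2 fold change 1.22 ± 0.15, adjusted p = 8.32e-06). SPCH, the basic helix-loop-helix factor that starts the lineage, rose from 9.43, 7.34, 8.69 and 9.71 CPM to 16.7, 16.9, 15.2 and 16.3 CPM (log2 fold change 0.89 ± 0.13, adjusted p = 6.43e-05). Its partner SCRM2 and POLAR, a protein of asymmetric division, rose by 0.89 ± 0.12 and 0.95 ± 0.13 on the log2 scale (adjusted p = 3.52e-05 and 1.82e-05). The receptor kinases ERL1 and ERL2 fell (-0.35 ± 0.10 and -0.27 ± 0.07, adjusted p = 0.022 and 0.0166). Both lost the call without replicate 2 of day 2 or replicate 4 of day 4, and ERL1 also without replicate 2 of day 4 (adjusted p up to 0.1). Against the window from day 0 to 2, 9 of the 17 had a higher change and 2 a lower one, against 4.39% and 3.67% of all tested genes. SCRM2 was among the higher (1.73 ± 0.22, adjusted p = 3.44e-05).

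**Figure D5:**
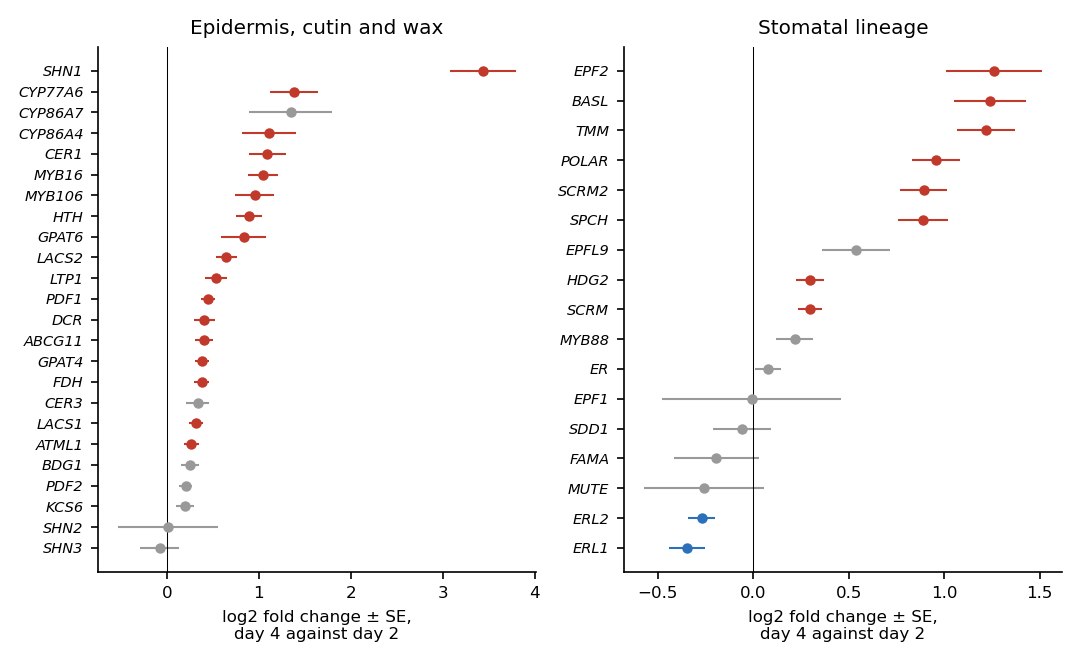
Points are log2 fold changes of day 4 against day 2 with SE, for 24 tested genes of epidermis, cutin and wax and 17 of the stomatal lineage; red and blue points passed adjusted p under 0.05 and grey ones did not. The 17 red epidermal genes run up to SHN1 at 3.44, and ERL1 and ERL2 are the 2 blue points.

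The promoters of genes that rose together were searched, in the 250 bases before the annotated start, for the L1 box TAAATGCA or TAAATGTA, a motif bound by epidermal HD-ZIP IV factors, and for GGACCA, the core bound by TCP4, and for GTGGNCCC, a site of class II TCP factors, on both strands and with overlaps allowed. The L1 box was in 4.55% of 19217 tested coding genes, in 6.48% of those higher at day 4 and in 6.61% of those lower. It was in 2 of the 17 epidermal genes that rose, FDH and ABCG11, and in 3 of the 8 stomatal genes that rose, BASL, HDG2 and TMM. Among all tested members it was in 2 of 24 epidermal and 4 of 17 stomatal genes. GGACCA was in 6.53% of all, 9.67% of the higher and 5.95% of the lower genes, and in 4 of the 17 epidermal genes that rose, CER1, LACS2, LTP1 and MYB106. Among all tested members it was in 5 of 24 epidermal and 0 of 17 stomatal genes. GTGGNCCC was in 0.786% of all, 0.976% of the higher and 1.32% of the lower genes, and in 0 of these 17 epidermal and 0 of these 8 stomatal genes. Below are the windows of LOX2, a jasmonate gene and known TCP4 target, and CER1, a wax alkane synthesis gene, with GGACCA or its complement in capitals, and those of TMM and FDH, an enzyme of epidermal lipid synthesis, with the L1 box in capitals.
LOX2: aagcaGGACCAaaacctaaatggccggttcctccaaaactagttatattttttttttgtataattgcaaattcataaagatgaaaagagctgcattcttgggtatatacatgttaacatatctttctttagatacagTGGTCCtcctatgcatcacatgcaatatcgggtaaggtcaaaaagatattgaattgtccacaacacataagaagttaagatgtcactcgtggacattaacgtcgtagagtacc
CER1: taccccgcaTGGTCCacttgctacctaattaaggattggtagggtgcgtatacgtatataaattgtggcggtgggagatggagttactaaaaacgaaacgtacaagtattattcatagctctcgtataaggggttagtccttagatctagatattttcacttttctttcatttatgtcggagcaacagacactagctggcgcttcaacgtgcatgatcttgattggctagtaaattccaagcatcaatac
TMM: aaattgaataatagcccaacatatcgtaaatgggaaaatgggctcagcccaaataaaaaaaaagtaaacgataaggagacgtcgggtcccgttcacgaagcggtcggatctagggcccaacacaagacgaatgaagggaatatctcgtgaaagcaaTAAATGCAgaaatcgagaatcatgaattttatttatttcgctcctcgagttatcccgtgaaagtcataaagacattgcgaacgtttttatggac
FDH: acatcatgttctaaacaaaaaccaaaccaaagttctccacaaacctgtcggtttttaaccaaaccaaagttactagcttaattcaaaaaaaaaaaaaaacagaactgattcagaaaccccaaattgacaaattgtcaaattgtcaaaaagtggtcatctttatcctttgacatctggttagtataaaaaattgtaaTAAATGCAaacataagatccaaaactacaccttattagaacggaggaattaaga

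The windows are chr3:16524995-16525244 (LOX2, plus strand), chr1:418166-418415 (CER1, plus), chr1:30129650-30129899 (TMM, minus) and chr2:11173279-11173528 (FDH, minus) of TAIR10.1, written 5′ to 3′ on the strand of the gene. GGACCA or its complement began 245 and 113 bases before the start of LOX2 and 241 bases before that of CER1, and the L1 box began 94 bases before the start of TMM and 54 before that of FDH. CER1 rose from 139 ± 25.1 to 296 ± 60.1 CPM (adjusted p = 0.0008) and FDH from 323 ± 29.3 to 420.0 ± 17.02 CPM (adjusted p = 0.00305). These genes were chosen for display after their values and motifs were seen, and binding was not measured.

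Trichome genes gave 3 falls and 1 rise among 10 tested. CPC, a MYB protein that restrains trichome fate, fell from 4.18 ± 0.661 to 2.59 ± 0.391 CPM (log2 fold change -0.69 ± 0.14, adjusted p = 0.00206). GL2 (-0.43 ± 0.11) and TTG2 (-0.37 ± 0.11), factors of trichome growth, fell, and TRY (0.53 ± 0.14), a relative of CPC, rose (adjusted p = 0.0188, 0.0347 and 0.0192). The list had 1 fall in place of 3 without replicate 3 of day 2 or replicate 2 or 4 of day 4. TRY lost its call without replicate 1 or 2 of day 2 or replicate 2 or 3 of day 4 (adjusted p up to 0.0894). TTG2 kept its call only without replicate 4 of day 2 or replicate 1 of day 4.

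Calls among mitosis genes were near the shares over all tested genes, 5.74% higher and 3.09% lower. Of 22 tested mitosis genes 1 rose (4.55%) and 1 fell (4.55%), with 5 at an unadjusted p under 0.05 and 2 calls by DESeq2. Of 16 DNA replication genes edgeR called 0, with 0 at an unadjusted p under 0.05 and 0 calls by DESeq2. A list of this size would hold few calls at the 8.83% called over all genes. CYCB2;1, a mitotic cyclin, rose from 11.0 ± 1.56 to 15.5 ± 1.37 CPM (log2 fold change 0.49 ± 0.09, adjusted p = 0.000697). CYCB1;1, another mitotic cyclin, fell (log2 fold change -0.20 ± 0.06, adjusted p = 0.0246) and lost the call without replicate 1 or 2 of day 2 or replicate 2 or 4 of day 4 (adjusted p up to 0.119), and 3 mitosis genes fell without replicate 3 of day 4. Inhibitors of cyclin-dependent kinases moved apart: KRP5 and KRP2 fell (-0.55 ± 0.10 and -0.50 ± 0.11, adjusted p = 0.000921 and 0.00573), and SMR1 and SMR2 rose (1.22 ± 0.29 and 0.48 ± 0.11, adjusted p = 0.00833 and 0.0074). These 4 were the calls among 15 tested genes of the endocycle and its inhibitors.

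Among 13 tested genes of organ size control 2 fell. KLU, a cytochrome P450 that prolongs organ growth, went from 456 ± 35.3 to 342 ± 37.3 CPM (adjusted p = 0.0054), and EOD3, its relative, from 1.30, 0.878, 1.36 and 1.10 CPM to 0.260, 0.412, 0.186 and 0.222 CPM (log2 fold change -2.09 ± 0.31, adjusted p = 6.44e-05). Of 19 genes of wall loosening and the primary wall 2 rose, both expansins, proteins that loosen cell walls. EXPA1 rose from 7.62 ± 2.37 to 16.0 ± 4.12 CPM (adjusted p = 0.00235) and EXPA11 from 0.251 ± 0.0726 to 0.929 ± 0.247 CPM (adjusted p = 0.0116).

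Of 18 tested cytokinin genes, 1 rose (5.56%) and 3 fell (16.7%). LOG7 and LOG4, which activate cytokinins, fell from 6.67 ± 0.695 to 3.69 ± 0.217 and from 11.7 ± 0.972 to 5.81 ± 1.43 CPM (log2 fold changes -0.85 ± 0.12 and -1.003 ± 0.15, adjusted p = 2.64e-05 and 0.000119). CKX1 (AT2G41510), a cytokinin oxidase that degrades the hormone, had 1.19, 0.773, 1.36 and 1.06 CPM at day 2 and 8.28, 6.90, 7.46 and 6.59 CPM at day 4, without overlap (log2 fold change 2.73 ± 0.24, adjusted p = 1.24e-07). CKX6, an oxidase of the same family, fell (log2 fold change -0.76 ± 0.15, adjusted p = 0.00187).

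Gibberellin genes gave 3 rises and 2 falls among 18 tested. GA2ox8, which inactivates gibberellin precursors, rose from 0.537, 0.386, 0.503 and 0.354 CPM to 1.56, 1.65, 2.01 and 3.11 CPM (log2 fold change 2.22 ± 0.32, adjusted p = 5.07e-05). GA2ox4, an inactivating enzyme of the same class, fell (-0.94 ± 0.17, adjusted p = 0.000773). The DELLA repressor RGL2 and the receptor GID1B rose (0.66 ± 0.14 and 0.54 ± 0.12, adjusted p = 0.00346 and 0.00616). GA20ox1, a synthesis enzyme, fell (-0.79 ± 0.22, adjusted p = 0.0214) and lost the call without replicate 4 of day 2 or replicate 3 of day 4 (adjusted p up to 0.0632).

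Jasmonate genes stood higher at day 4 with wide spread between libraries. Of 15 tested, 4 rose (26.7%) and 0 fell, with a median log2 fold change of 0.68. AOC1, an allene oxide cyclase, had 0.153, 0.211, 0.215 and 0.744 CPM at day 2 and 1.67, 7.46, 2.53 and 6.88 CPM at day 4 (log2 fold change 3.78 ± 0.52, adjusted p = 3.48e-05), and it can share reads with its near copy AOC2. LOX2 (AT3G45140), a lipoxygenase at the start of jasmonate synthesis, had 164, 69.4, 98.4 and 98.8 CPM and then 153, 316, 219 and 419.9 CPM. Replicate 1 was the highest library of day 2 and the lowest of day 4, so that the days overlapped (log2 fold change 1.36 ± 0.34, adjusted p = 0.0119), and the call was lost without day 2 replicate 2 or day 4 replicate 4 (adjusted p up to 0.0652). LOX3, a lipoxygenase of the same pathway, rose by 1.10 ± 0.27 (adjusted p = 0.00939). DAD1, a lipase that feeds the pathway, had 0.0383, 0, 0 and 0 CPM at day 2 and 0.0371 to 0.562 CPM at day 4, with overlap between day 2 replicate 1 and day 4 replicate 1 (adjusted p = 0.0129) and lost the call without day 4 replicate 2 (adjusted p = 0.0533). Without day 4 replicate 1 the list gave 8 calls, and with 1 replicate number left out of all days it gave 10 (without replicate 1), 1 (without replicate 2), 2 (without replicate 3) and 1 (without replicate 4). Summed over the list, the level was 629 to 993 CPM at day 2 and 870 to 1840 CPM at day 4, so that the days overlapped.

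Beside the jasmonate genes, those of handling and rapid stress summed to 436 to 648 CPM at day 2 and 289 to 443 CPM at day 4, and 1 of 13 was called. It was the heat shock gene HSP70-4, with 2.15, 1.33, 1.33 and 1.70 CPM and 3.08, 3.79, 3.16 and 8.33 CPM (adjusted p = 0.0211), which lost the call without replicate 2 or 3 of day 2 or replicate 4 of day 4 (adjusted p up to 0.141). Whether the state of the plants at sampling had a part in the jasmonate result was not tested. Of 12 flavonoid genes 3 rose, and 1 without day 2 replicate 2. F3'H, a hydroxylase of flavonoid synthesis, rose from 10.7, 8.19, 12.4 and 14.1 CPM to 22.9, 39.0, 42.9 and 53.6 CPM (log2 fold change 1.80 ± 0.30, adjusted p = 0.000269). LDOX and UFGT, late enzymes of anthocyanin synthesis, rose by 2.20 ± 0.63 and 3.21 ± 0.81 (adjusted p = 0.0293 and 0.0131). UFGT lost the call without day 2 replicate 2 (adjusted p = 0.0545), and LDOX kept it only without day 2 replicate 3 or day 4 replicate 1 (adjusted p up to 0.101).

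The 15 largest rises among 377 genes that passed the test, averaged at least 5 CPM, did not overlap between days and had a symbol included SHN1 and several genes known from stress and hormone responses. NIT2 (AT3G44300), a nitrilase whose near copies can share its reads, had 1.19, 0.667, 0.790 and 0.532 CPM at day 2 and 18.5, 22.3, 6.72 and 10.4 CPM at day 4 (log2 fold change 4.19 ± 0.42, adjusted p = 6.27e-07). CORI3 (AT4G23600), a cystine lyase induced by jasmonate and coronatine, had 26.8, 10.8, 16.9 and 23.8 CPM and then 152, 244, 154 and 288 CPM (log2 fold change 3.42 ± 0.35, adjusted p = 7.77e-07). HFR1, a light-signalling factor, had 1.23, 1.30, 1.54 and 2.13 CPM and then 8.80, 7.35, 9.51 and 12.7 CPM (log2 fold change 2.62 ± 0.25, adjusted p = 2.85e-07). In these 3 genes no day 2 library reached the lowest day 4 library, which the rule for these rises required.

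The ERF factors RAP2.6 and Rap2.6L rose by 3.60 ± 0.62 and 2.14 ± 0.23 and the NAC factors RD26 and NAC019, known from drought and abscisic acid responses, by 2.30 ± 0.32 and 1.94 ± 0.43 on the log2 scale (adjusted p = 0.000411, 1.31e-06, 3.52e-05 and 0.00457). TI1, a defence protein, and PTR1, a peptide transporter, rose by 1.94 ± 0.18 and 1.92 ± 0.23 (adjusted p = 2.96e-07 and 5.07e-06). MBP1, a myrosinase-binding protein, went from 55.5 ± 21.3 to 209.9 ± 85.9 CPM (adjusted p = 0.0054). ChlAKR, PRN and GSTU6 rose by 2.24, 2.19 and 1.99 on the log2 scale (adjusted p = 4.77e-05, 0.00584 and 0.000413). ASN1, an asparagine synthetase induced in the dark, spread from 8.47 to 78.5 CPM at day 4, against 1.94 to 4.1025 CPM at day 2 (log2 fold change 3.25 ± 0.90, adjusted p = 0.0237), and lost its call without any one of the day 2 libraries or without day 4 replicate 2 (adjusted p up to 0.158).

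The 15 largest falls among 207 such genes were led by the founder-cell genes DRNL and AHP6 and also held LSH1, LOG4 and SVP. TEL1 (AT3G26120), an RNA-binding protein of the shoot apex, had 7.17, 8.26, 8.08 and 6.80 CPM at day 2 and 2.26, 3.19, 3.49 and 2.18 CPM at day 4 (log2 fold change -1.44 ± 0.19, adjusted p = 2.02e-05). AGO5 (AT2G27880), an Argonaute protein, had 33.0, 41.7, 36.9 and 37.0 CPM and then 14.5, 16.1, 17.8 and 12.8 CPM (log2 fold change -1.28 ± 0.10, adjusted p = 5.59e-08). SAP, a regulator of flower and ovule development, had 15.1, 14.9, 13.3 and 13.1 CPM and then 5.75, 6.86, 7.87 and 5.77 CPM (log2 fold change -1.10 ± 0.13, adjusted p = 4.36e-06). None of these 3 overlapped between the days, which the rule for these falls required.

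The wall-associated kinases WAK2 and WAK1 fell, with log2 fold changes of -1.08 ± 0.26 and -0.95 ± 0.19 (adjusted p = 0.00987 and 0.00153), and they belong to a cluster of near copies that can share reads. LBD19, a LOB-domain factor, and TPPJ, a trehalose phosphatase, fell, with log2 fold changes of -1.003 ± 0.13 and -0.98 ± 0.19 (adjusted p = 1.82e-05 and 0.00118). BRL1, a vascular brassinosteroid receptor, and the transporter ABCG4 likewise fell, with -0.92 ± 0.14 and -0.93 ± 0.20 on that scale (adjusted p = 0.000111 and 0.00374). PAD4, a regulator of disease resistance, fell (log2 fold change -0.91 ± 0.24, adjusted p = 0.0162) and lost the call without day 2 replicate 1 (adjusted p = 0.0506).

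Over all genes, 1591 (8.06%) changed differently from day 2 to 4 than from day 0 to 2, 866 (4.39%) with a higher and 725 (3.67%) with a lower change in the later window. With the call of day 4 against day 2, the mean of at least 5 CPM and a symbol also required, 119 and 90 remained. The 6 with the smallest adjusted p among the higher were TCP10, SCRM2 and TCP4, given above, IDD4, a zinc-finger factor, CYSA, a cystatin, and TRM26. IDD4 had means of 16.966, 6.16 and 14.1 CPM at days 0, 2 and 4 (difference 2.66 ± 0.33, adjusted p = 2.98e-05). CYSA and TRM26 gave differences of 1.09 ± 0.14 and 1.93 ± 0.25 (adjusted p = 3.95e-05 and 5.15e-05). All 3 had lower means on day 2 than on day 0, and all 3 rose from day 2 to day 4.

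The 6 among the lower were AP3, LFY and JAG, given above, FOP1, PUP4 and ROT3. FOP1, a protein that shapes petals, had means of 0.409, 12.0 and 19.9 CPM at days 0, 2 and 4 (difference -4.12 ± 0.32, adjusted p = 3.69e-08), so that most of its rise preceded day 2. PUP4, a purine permease, went from 10.2 to 23.5 and then to 13.6 CPM (difference -1.98 ± 0.18, adjusted p = 3.24e-07). ROT3, a brassinosteroid hydroxylase, had 3.02, 8.99 and 7.10 CPM (difference -1.92 ± 0.18, adjusted p = 8.96e-07), while its own fall in the later window was near the threshold (adjusted p = 0.0482) and was lost without any one of 6 libraries, day 2 replicate 1 and day 4 replicate 4 being the exceptions.

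In day 4 against day 2, the lists for photosynthesis, the clock, meiosis, pollen and vasculature gave 1 call between them. Of 25 photosynthesis genes edgeR called 0, with 1 at an unadjusted p under 0.05 and 0 calls by DESeq2, and their summed level was 10400 to 13300 CPM at day 2 and 11600 to 12200 CPM at day 4. Of 15 clock genes edgeR called 0, with 0 at an unadjusted p under 0.05 and 0 by DESeq2. Of 15 meiosis genes edgeR called 0, with 2 at an unadjusted p under 0.05 and 1 by DESeq2. Of 10 mature pollen genes 3 were tested, with 0 calls by either tool and 0 at an unadjusted p under 0.05. The vasculature list summed to 411 to 416 CPM at day 2 and 383 to 415 CPM at day 4, and 1 of its 16 genes was called: TMO5, a factor of vascular cell divisions, fell from 63.1 ± 6.73 to 36.8 ± 10.5 CPM (adjusted p = 0.00837). Of 15 genes of low oxygen and mitochondrial stress 3 fell (20%), with a median log2 fold change of -0.19. These were SUS4 (-0.83 ± 0.18, adjusted p = 0.00387), ERF73 (-1.02 ± 0.25, adjusted p = 0.00989) and SUS1 (-0.59 ± 0.15, adjusted p = 0.0135), the last of which lost its call without replicate 1 or 2 of day 2 or replicate 2 or 4 of day 4 (adjusted p up to 0.0634). Without replicate 2 of all days, 0 genes of this list fell and its median was 0.00507. In the test between windows, 11 of the 25 photosynthesis genes had a higher change in the later window and 0 a lower one. Of the 15 genes of low oxygen and mitochondrial stress, 0 had a higher change and 7 a lower one. Among all tested genes these shares were 4.39% and 3.67%.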

How the data were processed

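Poly(A) RNA of inflorescences was sequenced in 2 batches, and each of the 24 samples has a run in both. The values deposited by the authors are expected counts, given as whole numbers with 1 column for each run; FastQC, Trim Galore, Salmon 0.12.0, DESeq2 and TAIR10 are named in the submitters' processing notes, with no settings. Estimated counts share out reads among near copies, and whether strand was used in counting is not given, so values of near copies and of overlapping genes are uncertain.

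The 2 runs of a sample were summed, after a check of their agreement (chi-square divided by its degrees of freedom was 1.05 to 1.19 between runs, against 6.15 to 26.5 between replicates of a day). Of 23069 gene identifiers, 22915 matched the RefSeq gene table of TAIR10.1, from which names, coordinates and sequences were taken, and the remaining 154 are organellar. Genes were kept by filterByExpr (minimum count 10, minimum total 15), which left 19747. Counts were normalized by TMM and fitted across the 24 samples with a level for each day, which left 18 residual degrees of freedom, and differences between days were tested with the quasi-likelihood test of edgeR 4.0.16 in R 4.3.3. P-values were adjusted over all tested genes by the Benjamini-Hochberg method, with calls at adjusted p under 0.05. The fitting procedure was also run on simulated counts, and no result here rests on that run. All adjusted p in the text come from this test unless DESeq2 1.42.0 is named. The labels call the samples biological replicates. Each p-value sets a difference between days against the spread among replicates within days, estimated over the 24 samples.

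The groups of genes were chosen with earlier results of these data known, and none is independent evidence of its direction. By rule, any member of the organ identity, meristem, boundary, polarity, GRF and CIN-type TCP lists could be named. In every other list these were up to 4 members with the smallest adjusted p and those called against the majority. Outside the lists they were the 15 largest rises and falls and the 6 genes with the smallest adjusted p in each direction of the test between windows, with a mean of at least 5 CPM and a symbol. Other genes with values, among them CRC, AIL7, DRN, PUCHI, YUC4, SOC1, FDP, AGL71, CER1 and FDH, and those named for a promoter motif, were named after their values were seen. Alternatives were DESeq2, other normalizations and filters, the replicate number as a block, each sequencing batch alone, fewer days in the fit, a fold threshold of 1.5 and leaving out libraries.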

Additional observations from a re-analysis of the deposited data

Results flagged for a closer look

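In 11 of 322 sets of 4 libraries, 1 library lay far from the other 3 of its day, with a gap to the nearest of them so large a part of the whole range that it passed Dixon's criterion, which chance gives in about 1 of 20 sets. Each is given as a value, with no explanation tested. AUX1 had 133 CPM in day 2 replicate 3, against 121 to 123 CPM in the others of that day. AP3 had 186 CPM in day 4 replicate 2, against 165 to 168 CPM. POLAR had 16.6 CPM in day 4 replicate 3, against 18.6 to 18.9 CPM. BASL, a protein of asymmetric division in the stomatal lineage, had 4.48 CPM in day 4 replicate 4, against 5.94 to 6.07 CPM. ERL1 had 238 CPM in day 2 replicate 2, against 201 to 206 CPM. SMR1 had 2.82 CPM in day 4 replicate 3, against 3.56 to 3.66 CPM. EXPA11 had 1.3 CPM in day 4 replicate 1, against 0.78 to 0.825 CPM. AOC1 had 0.744 CPM in day 2 replicate 4, against 0.153 to 0.215 CPM. DAD1 had 0.0383 CPM in day 2 replicate 1, against 0 in the others. UFGT had 1.04 CPM in day 4 replicate 1, against 1.96 to 2.1 CPM. HSP70-4 had 8.33 CPM in day 4 replicate 4, against 3.08 to 3.79 CPM.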

How the results depend on the processing

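Day 4 against day 2 gave 1133 genes higher and 610 lower, and these counts were 620 and 342 among genes averaging at least 10 CPM, 194 and 54 with a fold threshold of 1.5, and 766 and 349 from batch 1 alone. Scaling by library totals gave 1048 and 675. Leaving out 1 replicate number from all days, or 1 library, gave 458 to 1173 higher and 248 to 558 lower. The lowest pair came without replicate 2 of all days. That fit kept 40.2% of the calls made with all samples, and 99.3% of its own 706 calls were among those. Day 3 against day 2, with 137 and 35, gave 48 and 15 at 10 CPM, 248 and 76 with DESeq2, and 4 to 150 and 1 to 44 with 1 replicate number left out. Day 4 against day 3, with 190 and 96, gave 114 higher at 10 CPM, 317 and 155 with DESeq2, and 24 to 142 and 12 to 76 in the same way. Second step minus first step gave 2 and 1 with DESeq2 and 0 in the other settings run. The test between windows, with 866 and 725, gave 468 lower at 10 CPM, and 142 to 1140 and 167 to 849 with 1 replicate number left out. Same-numbered libraries of days 2 and 4 had deviations from their day means that correlated at 0.175, -0.16, 0.254 and 0.138. Since 1 of the 4 is not above 0.1, the numbers were not taken as pairs, although the other 3 are above it and replicate 1 of both days lay together on the second principal component. The fit with the replicate block gave 1169 and 618, 161 and 38, 207 and 97, 0 and 0, and 891 and 727 calls in these 5 comparisons. In the block BAM3 and FDP lost their calls among 155 called genes named in the text. Of these 155, all kept their call with DESeq2 and with its size factors in edgeR, 99 of 102 at 10 CPM, 121 of 152 in batch 1 alone, 147 of 154 in batch 2 alone, 142 of 153 with days 2 and 4 alone, 42 with the fold threshold, 99 to 141 without 1 replicate number and 132 to 143 without 1 library, and 0 changed direction. Genes that were not called could change sign: log2 fold changes of TCP17 ran from -0.653 to 0.0481 with 1 replicate number or library left out, positive without replicate 1, and were -1.14 in batch 1 alone (adjusted p = 0.219) and 0.00376 in batch 2 alone. Those of PI ran from -0.0329 to 0.0673, negative without replicate 2, day 2 replicate 3 or day 4 replicate 2. Among the lists, epidermal rises went from 17 to 7 and carpel rises from 7 to 3 without replicate 2 of all days, and boundary falls from 6 to 3 without replicate 4 of all days or in batch 1 alone, where carpel rises were 4. Transition falls went from 7 to 4 without replicate 2, 3 or 4 of all days, gibberellin rises from 3 to 1 and wall rises from 2 to 0 without replicate 2, and flavonoid rises and trichome falls from 3 to 1 without replicate 2 or 4; the cause was not tested. The runs of batch 1 were shallower, at 4.495 to 10.84 M counts, than those of batch 2, at 16.74 to 22.61 M, and genes near 1 CPM rest on few counts.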
